A study of Mus musculus with 8 samples.

Results

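The genes described here encode the proteins of the cytosolic ribosome. They were chosen by symbol: protein-coding mouse genes named Rpl or Rps with a number and at most one letter a, x or y, plus Rplp0, Rplp1, Rplp2 and Rpsa. This gave 76 genes of the 35975 genes with a transcript in the table, of which 43 belong to the large subunit, 30 to the small subunit and 3 to the P stalk. All 76 had at least 10 estimated counts in every library and were among the 12883 genes tested. They lie on 19 chromosomes, with 14 of them on chromosome 7 and 4 on chromosome X.

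Livers came from 8 C57BL/6 mice of 2 groups. In the saline group (n = 4), normal saline ran into the portal vein for 2 weeks from an implanted osmotic pump, and in the 4-HPAA group (n = 4) the pump held 4-hydroxyphenylacetic acid, a phenolic acid made by gut microbes from dietary compounds, at 55 mM in saline. All mice thus had the same cannula, pump and single housing, and were bought at 8 to 10 weeks of age. Males and females were used in the study, and the sex of each sequenced mouse is not in the sources used here. The comparison asks which liver transcripts change when this metabolite reaches the liver by the portal route.

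Assembly of the ribosomal subunits begins in the nucleolus, from ribosomal RNA and close to equal numbers of each ribosomal protein. The mRNAs of these proteins are short, abundant and long-lived, and most begin with a cytosine followed by an unbroken run of pyrimidines, the 5′ terminal oligopyrimidine (TOP) tract. Through this tract the kinase complex mTORC1 and the RNA-binding protein LARP1 set how much of the mRNA is translated in response to nutrients, so that in liver much of the control of ribosome supply acts on translation, which mRNA counts do not measure.

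Because the tract is the feature that these mRNAs share outside their proteins, a few examples are shown. RefSeq gave 66 start sites for 56 of the 76 genes on GRCm38.p6. At 13 of these 66 starts the first base was C and the next 4 or more bases were all C or T, read on the strand of the gene, which is 19.7%, beside 2.51% of all 32851 RefSeq starts. At the GENCODE start of each gene's most counted transcript the same letters stood in 11 of 76 members and in 2.43% of the 12877 tested genes with a start sequence. Annotated starts often miss the true first base by several bases, and a missing match says only that these letters are not at that position. Each window below runs from 10 bases before the start to 20 bases from it, and capitals mark the tract:
Rps6 (chr4:86857348-86857377, minus strand): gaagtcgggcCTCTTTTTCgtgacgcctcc
Rps10 (chr17:27635225-27635254, minus strand): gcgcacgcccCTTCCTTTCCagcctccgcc
Rps18 (chr17:33955646-33955675, minus strand): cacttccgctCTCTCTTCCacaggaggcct
Rpl28 (chr7:4792955-4792984, plus strand): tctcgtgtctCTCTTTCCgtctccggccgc
Rpl35 (chr2:39005112-39005141, minus strand): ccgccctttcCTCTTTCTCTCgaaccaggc
Rpl35a (chr16:33056472-33056501, plus strand): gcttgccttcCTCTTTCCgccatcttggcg
Rpl38 (chr11:114668570-114668599, plus strand): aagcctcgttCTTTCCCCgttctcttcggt
Rplp2 (chr7:141447641-141447670, plus strand): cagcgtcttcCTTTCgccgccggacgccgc
The capitals start at the same place in these 8 windows because the windows were chosen and cut by that rule. Counted from the annotated start, the tracts run from 5 bases in Rplp2 to 11 bases in Rpl35. In both of these genes pyrimidines also stand directly before the capitals, so the lengths depend on the annotated start.

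The libraries held between 29559978 and 30673398 estimated counts, so depth was nearly equal. The 8 hepatocyte markers summed to between 105362 and 133964 CPM (counts scaled to library size) in every library. Red blood cell markers (5 of 7 tested) stood apart in saline 2, at 2560 CPM against 247 to 376 CPM in the other saline libraries, and in 4-HPAA 4, at 734 CPM against 152 to 163 CPM in the other 4-HPAA libraries. Leukocyte markers (8 of 10 tested) summed to 62.3 to 205 CPM and endothelial markers (6 of 6) to 96.4 to 164 CPM, and both were lowest in 4-HPAA 4. Stellate cell markers (6 of 6) summed to 94.8 to 191 CPM and cholangiocyte markers (4 of 5) to 23.0 to 44.4 CPM.

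The ribosomal protein genes took about 1% of all counts in both groups. Their share was 1.28%, 1.09%, 0.889% and 1.09% in saline 1 to 4, a mean of 1.09% ± 0.160 (SD, n = 4). In 4-HPAA 1 to 4 it was 1.07%, 0.944%, 1.02% and 1.33%, a mean of 1.09% ± 0.167 (SD, n = 4). The exact binomial 95% interval of a single library was at most 0.00413 percentage points to either side, counting error only, so the 1.50-fold distance between saline 3 and 4-HPAA 4 is far wider than counting error. The means lay closer together than the mice within either group. The large subunit genes took 0.472% to 0.674% in saline and 0.497% to 0.689% with 4-HPAA, and the small subunit genes 0.366% to 0.536% and 0.393% to 0.566%. Saline 3 was lowest and 4-HPAA 4 highest for the large subunit, the small subunit and the P stalk alike. In bulk tissue, fewer cells of a type and less RNA per cell cannot be told apart.

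No member passed the test between groups. edgeR's quasi-likelihood test called 0 of the 76 members at an adjusted p under 0.05, and 0% of all 12883 genes. At an unadjusted p under 0.05 it gave 0 members, against 1.75% of all genes. DESeq2 called 0 members, against 0.0155% of all genes, and at an unadjusted p under 0.05 it gave 1 member, Rps2, against 1.68%. limma-voom gave 0 members at either threshold, and its share of all genes is not given here. The fold change was above 0 in 39 members and below 0 in 37, beside 50.4% of all genes above 0. Its median over the members was 0.00 on the log2 scale, as over all genes, and the median standard error was 0.15. In 0 of the 76 members did all 4-HPAA libraries lie above or below all saline libraries, beside 1.20% of all genes. At so small a share, 0 among 76 genes does not set the members apart.

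**Figure D1:**
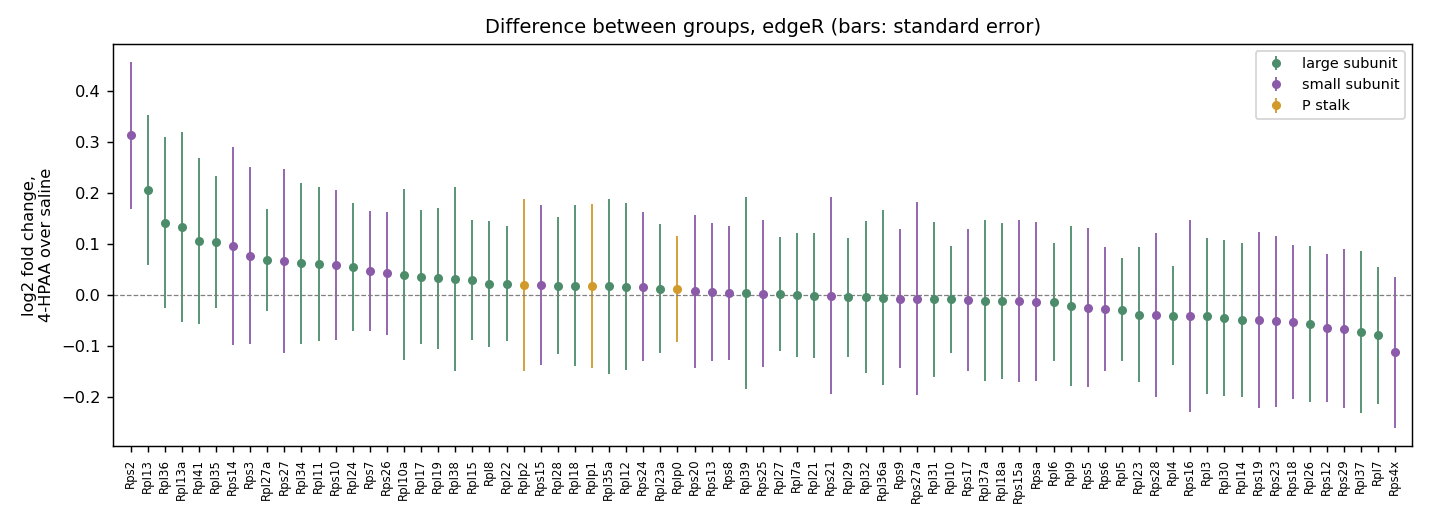
Log2 fold change of 4-HPAA over saline for 75 of the 76 members, from edgeR, sorted and coloured by subunit, with 1 standard error to either side. The bars of all members drawn include 0 except those of Rps2 at the left end and Rpl13 beside it.

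The fold changes ran from -0.11 in Rps4x to 0.31 in Rps2, and 74 of 76 were smaller than their own standard error. Their median size, regardless of sign, was 0.03 on the log2 scale, against 0.07 over all genes. The large subunit had 23 genes above 0 and 20 below, the small subunit 13 above and 17 below, and the 3 P stalk genes were between 0.01 and 0.02. The direction of most members rested on single mice: with saline 3 left out 7 members were above 0, with 4-HPAA 4 left out 4, with saline 1 left out 68, with 4-HPAA 2 left out 73 and with 4-HPAA 3 left out 66.

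What the members did show was a difference between mice that nearly all of them shared. For each gene the log2 CPM, after TMM normalization, was set against the gene's own mean over the 8 libraries. The median of these deviations over the members was 0.22, 0.03, -0.29 and 0.05 in saline 1 to 4. In 4-HPAA 1 to 4 it was 0.04, -0.23, -0.14 and 0.34. Over all genes tested the median stayed between -0.01 and 0.02 in every library, a median that TMM normalization itself keeps small. In 4-HPAA 4 all 76 members were above their own mean and in saline 1 75 of 76 were. In saline 3 none of the 76 was above its mean, in 4-HPAA 2 only 1, and in 4-HPAA 3 only 12. The highest library was 4-HPAA 4 for 70 members, and the lowest was saline 3 for 53, 4-HPAA 2 for 14 and 4-HPAA 3 for 9. Both groups thus held mice at the upper and at the lower end.

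**Figure D2:**
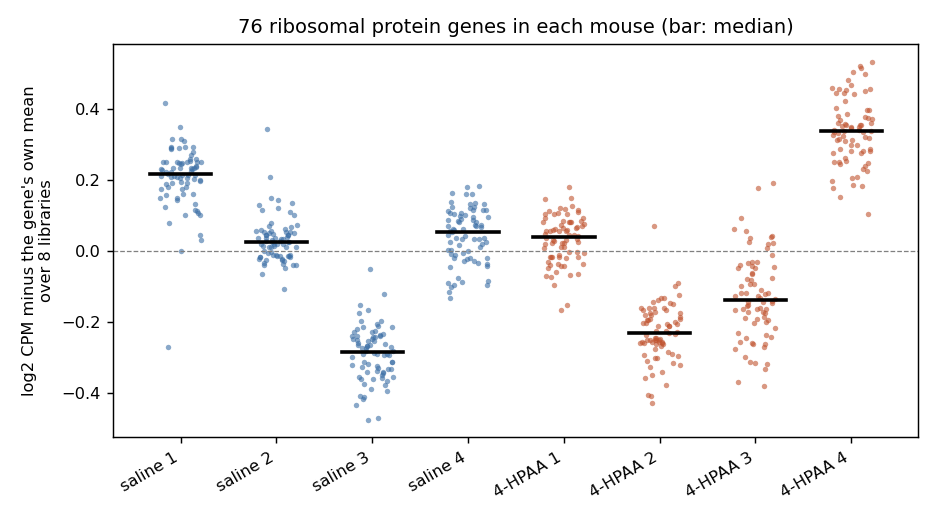
Each point is 1 of the 76 members, and the vertical axis gives its log2 CPM minus its own mean over the 8 libraries. The bar is the median in that library. All points sit above 0 in 4-HPAA 4 and all but 1 in saline 1, and none sits above 0 in saline 3 and 1 in 4-HPAA 2.

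The distance between the lowest and the highest library was 0.66 on the log2 scale for the median member, or 1.58-fold, and ran from 0.30 in Rpl4 to 1.01 in Rpl13a. The median over all genes tested was 0.52. After each library's member median was taken off, the median SD of a member over the 8 libraries was 0.08, against 0.23 before. Within groups, that is after each group's mean was removed from each gene, the median Pearson r over the 2850 pairs of members was 0.93 and the median Spearman rho was 0.90. Without saline 3 and 4-HPAA 4, the libraries farthest from the middle, the median r was 0.78. These 8 points share library and depth. On the same values the mean r was 0.89 over the pairs of members and 0.00 over all pairs of genes tested. TMM normalization takes out movement common to most genes, so a small mean r over all pairs follows in part from it. Members with a tract at a listed start had a median range of 0.70 (n = 21) and the others 0.64 (n = 55). The others only lack these letters at an annotated start and may carry the tract, and the difference was not tested.

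Marker lists moved between the same mice. Red blood cell markers had median deviations of 0.42, 3.39, -0.53 and 0.03 in saline 1 to 4 and -1.38, -1.73, -1.56 and 1.38 in 4-HPAA 1 to 4. They lay on the side of the members in every library except 4-HPAA 1, where they were low and the members were at 0.04. They were highest in saline 2, where the members were near their mean. Leukocyte markers lay on the other side from the members in saline 1 (-0.36), saline 3 (0.35), saline 4 (-0.24), 4-HPAA 2 (0.35) and 4-HPAA 4 (-0.67). They lay on the members' side in saline 2 (0.72, their highest), 4-HPAA 1 (0.21) and 4-HPAA 3 (-0.19). Endothelial markers lay on the other side in saline 3 (0.20), saline 4 (-0.42), 4-HPAA 2 (0.40), 4-HPAA 3 (0.05) and 4-HPAA 4 (-0.58). In saline 1, saline 2 and 4-HPAA 1 they were at 0.09, 0.00 and 0.11. Stress genes (8 of 8 tested) were highest in saline 1, at 1.14 and 330 CPM against 73.3 to 126 CPM in the other saline libraries, and were at -0.06 in 4-HPAA 4. In saline 1 to 4 hepatocyte markers were at 0.07, -0.09, -0.04 and 0.03. In 4-HPAA 1 to 4 they were at 0.07, -0.07, -0.03 and 0.09, on the members' side except in saline 2. Stellate markers were at 0.37, -0.20, 0.09 and -0.59 in saline and at 0.24, 0.15, 0.14 and -0.37 with 4-HPAA. Cholangiocyte markers were at 0.59, -0.21, -0.12 and -0.45 in saline and at 0.25, -0.21, -0.00465 and 0.19 with 4-HPAA. The part of these lists in the shared movement was not tested.

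Transcript length also moved with the block. The most counted transcript of a member had a median length of 736 bases, and 60 of 76 were under 1000 bases, against 975 of 12877 genes tested. Among the other genes, the 221 with a most counted transcript under 600 bases had median deviations of 0.05, -0.01, -0.14 and 0.09 in saline 1 to 4, and 0.07, -0.16, -0.04 and 0.20 in 4-HPAA 1 to 4. The 4012 genes of 4000 bases and over had the opposite sign in 4-HPAA 4 with -0.11, in saline 3 with 0.08 and in 4-HPAA 2 with 0.09. In saline 1 they were at 0.01, on the side of the members. In saline 1 the members were at 0.22 and the other genes under 600 bases at 0.05. The part of transcript length in the shared movement was not tested.

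**Figure D3:**
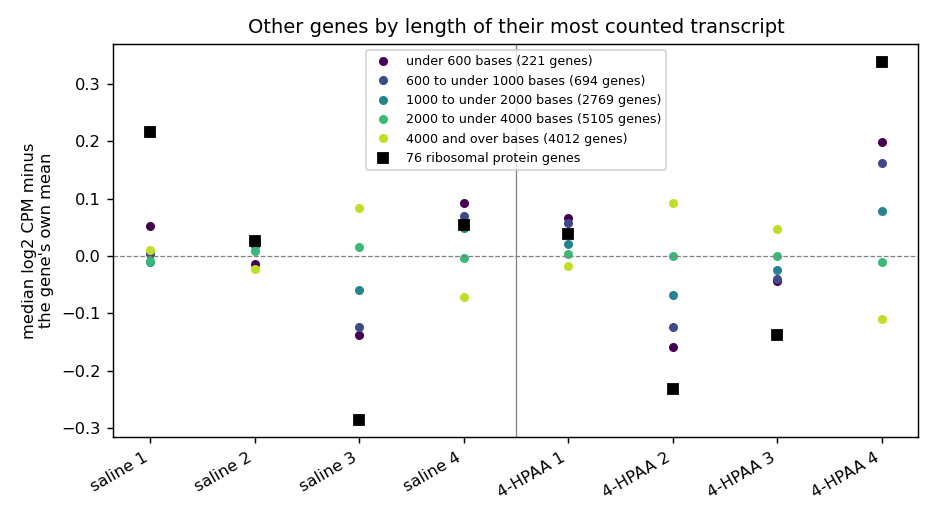
Median deviation of log2 CPM from each gene's own mean, in each library, for genes that are not members grouped by the length of their most counted transcript (circles) and for the 76 members (black squares). Short genes lie on the same side as the members in saline 3, 4-HPAA 2 and 4-HPAA 4, closer to 0, and the longest genes lie on the other side.

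The P stalk recruits the elongation factors to the ribosome. Rplp0, its base and a common reference gene in quantitative PCR, was at 316, 286, 242 and 289 CPM in saline 1 to 4 and at 288, 258, 274 and 322 CPM in 4-HPAA 1 to 4. The groups overlapped over nearly their whole range, and the log2 fold change was 0.01 ± 0.10 (SE). Rplp1, which pairs with Rplp2 on that base, ran from 187 to 265 CPM in saline and from 200 to 312 CPM with 4-HPAA. Rplp2 ran from 81.5 to 117 CPM and from 79.4 to 139 CPM. Rplp0 thus had a narrower range over the mice, 0.41 on the log2 scale, than Rplp1 with 0.73 and Rplp2 with 0.81.

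In the small subunit, Rps6 encodes the protein that S6 kinase phosphorylates downstream of mTORC1. It was at 282, 247, 217 and 269 CPM in saline 1 to 4 and at 257, 213, 229 and 297 CPM in 4-HPAA 1 to 4, with a log2 fold change of -0.03 ± 0.12 (SE). It was highest in 4-HPAA 4 and saline 1 and lowest in 4-HPAA 2 and saline 3, the libraries at the ends of the block. Rpsa, which is also known as a laminin receptor, had means of 322 CPM in saline and 319 CPM with 4-HPAA. Rps3, which sits at the entry of the mRNA channel, had 209 and 220 CPM. Rps19, whose human counterpart is the gene most often mutated in Diamond-Blackfan anemia, had 100.4 and 97.1 CPM. Rps14, whose human counterpart is lost in the 5q- syndrome, had 171 and 183 CPM. Rps24 had 170 and 172 CPM, and Rps27a, made as a fusion with ubiquitin, 190 and 189 CPM. In none of these did the means differ by more than 1 SD of either group, and the SDs ran from 19.6 to 65.4 CPM.

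Rps2, whose protein lines the mRNA entrance with Rps3, had the smallest p of all members. It was at 434, 403, 335 and 401 CPM in saline 1 to 4 and at 387, 456, 491 and 620 CPM in 4-HPAA 1 to 4. All 4-HPAA libraries but the first were above every saline library, and 4-HPAA 1 was below saline 1, 2 and 4. The log2 fold change was 0.31 ± 0.14 (SE), with an unadjusted edgeR p of 0.0547 and an adjusted p of 1.00. Set against the member median of each library, Rps2 was at -0.20, -0.11, -0.06 and -0.17 in saline 1 to 4 and at -0.20, 0.29, 0.28 and 0.18 in 4-HPAA 1 to 4. Rpl13, of the large subunit, had the next smallest p in that direction. It was at 168, 169, 124 and 153 CPM in saline and at 147, 153, 186 and 222 CPM with 4-HPAA, a log2 fold change of 0.21 ± 0.15 (SE) with an adjusted p of 1.00. Relative to the member median Rpl13 was again lowest in 4-HPAA 1, at -0.19, and highest in 4-HPAA 3, at 0.29. These were the members least like the rest apart from genes with abundant pseudogenes, with r to the mean of the others of 0.71 for Rps2 and 0.77 for Rpl13, against a median of 0.97 over members. That contrast with the other members was noticed after their values were seen and was not tested.

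The next members by p in the upward direction were Rpl36 with a log2 fold change of 0.14 ± 0.17 (SE) and Rpl35 with 0.10 ± 0.13 (SE). In the other direction stood Rps4x with -0.11 ± 0.15 (SE), Rpl7 with -0.08 ± 0.13 (SE) and Rpl37 with -0.07 ± 0.16 (SE). Rps4x, the X-linked small subunit gene, was at 240, 209, 181 and 228 CPM in saline 1 to 4 and at 195, 178, 162 and 258 CPM in 4-HPAA 1 to 4, so that 4-HPAA 4 alone was above all saline mice. All of these had an adjusted p of 1.00.

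**Figure D4:**
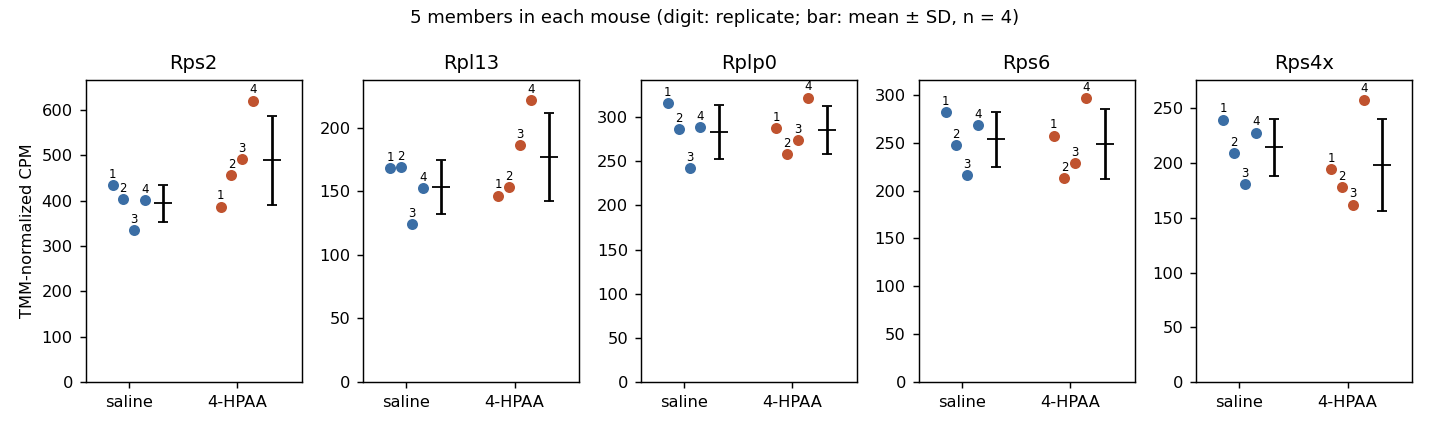
TMM-normalized CPM of 5 members in each mouse, on axes that start at 0, with the mean ± SD of each group (n = 4) to the right of its points. In all 5, 4-HPAA 4 is the highest 4-HPAA library, and saline 1 is the highest saline library except in Rpl13, where saline 2 is level with it. The second highest 4-HPAA library is 4-HPAA 3 in Rps2 and Rpl13, and 4-HPAA 1 in Rplp0, Rps6 and Rps4x. In these last genes the group means lie within 1 SD.

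In the large subunit, Rpl3, next to the peptidyl transferase centre, had 234 CPM in saline and 227 CPM with 4-HPAA. Rpl11, which with Rpl5 and the 5S RNA binds Mdm2 when assembly is disturbed, had 176 and 184 CPM. Rpl10, among the last proteins to join the subunit, had 204 and 203 CPM. Rpl10a, near the tRNA exit site, had 77.1 and 79.3 CPM, and Rpl13a, also known as part of a translational silencing complex, 262 and 288 CPM. Rpl22, an RNA-binding protein with a paralog, had 76.3 and 77.5 CPM, and Rpl38, known from patterning defects in mutant mice, 64.1 and 65.5 CPM. The small basic proteins at the exit tunnel and subunit bridge, Rpl39 and Rpl41, had 70.3 and 70.5 CPM and 154 and 166 CPM. The log2 fold changes of these genes ran from -0.04 in Rpl3 to 0.13 in Rpl13a, each smaller than its standard error.

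To compare levels between genes, counts were divided by the full length of each annotated transcript and scaled to the same total in every library (TPM). No correction for fragment size was made. The median member was at 314 TPM, with 343 TPM for the small subunit and 288 TPM for the large. The highest were Rplp1 at 783 TPM, Rps2 at 722 TPM, Rpl13a at 707 TPM and Rps18 at 627 TPM. Over the 8 libraries Rplp1 ran from 618 to 992 TPM and Rps18 from 509 to 772 TPM, so that these neighbours overlap widely. The lowest were Rpl35 at 116 TPM, Rps20 at 109 TPM, Rpl5 at 18.3 TPM and Rpl12 at 12.3 TPM. Rpl5 and Rpl12 lay far under all others, and even their highest libraries were under the lowest library of Rps20, at 81.8 TPM.

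**Figure D5:**
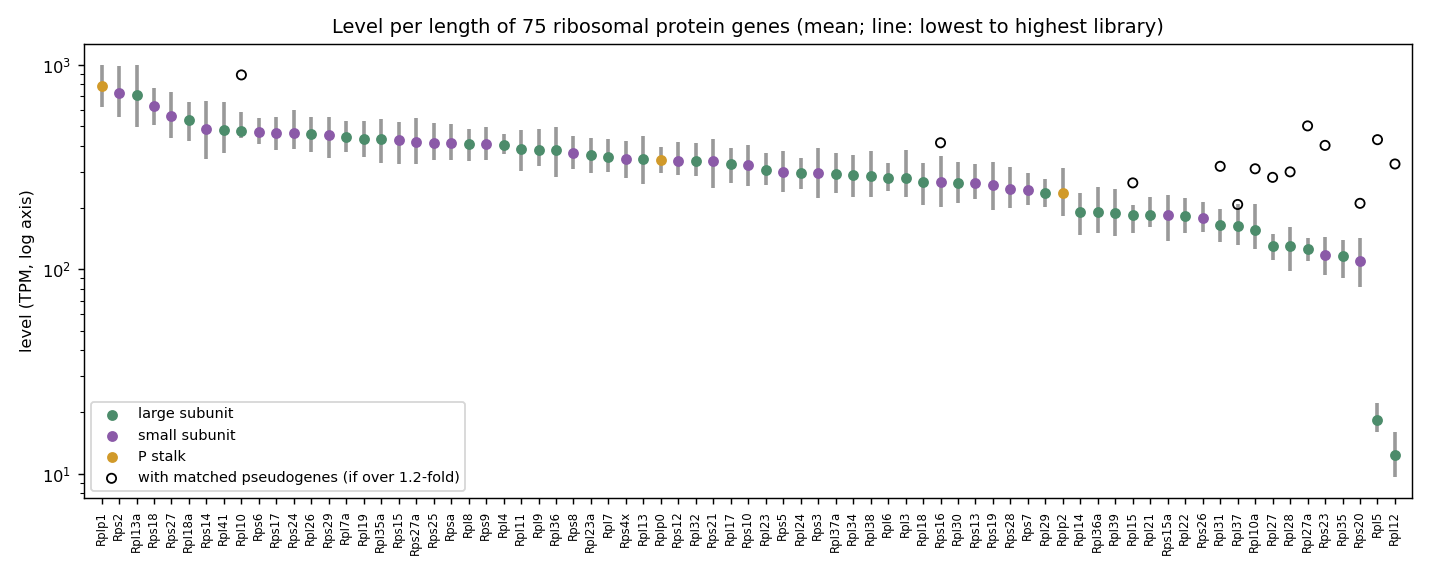
Level per transcript length (TPM, log axis) of 75 of the 76 members, sorted, with points for the mean over the 8 libraries and lines from the lowest to the highest library. Open circles give the mean after the counts of matched pseudogenes were added, drawn where they changed it visibly, and they move Rpl5 and Rpl12 from the bottom into the range of the other members.

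Beside the low values of Rpl5 and Rpl12 stood high counts under pseudogene copies of these genes. Ribosomal protein genes have many processed pseudogenes, copies of the spliced mRNA elsewhere in the genome, and a read that fits the gene and its copy equally well is divided between them by the quantification. Of 553 pseudogene transcripts with a mean count of at least 10, 27 matched 24 members at 95% identity or more over at least 80% of their length. Of these, 16 were identical to the member over at least 95% of their length. For Rpl5 the table gave a mean of 492 counts to the gene and 7562 to Gm15500, so that 93.8% of their sum stood under the copy. For Rpl12 it gave 236 counts to the gene and 3636 to Gm10275, again 93.8%. Rpl27a (54.1%) and Rps23 (53.2%) also had over 50% of the sum under a copy, and Rpl10 had 48.8%, with 6061 counts under the gene and 5826 under Rpl10-ps3. In all, 10 members had over 25%.

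With the matched copies added, Rpl5 was at 430 TPM and Rpl12 at 327 TPM, ranks 20 and 41 of the 76, and Rpl10 became the highest at 890 TPM. Their movement over the mice also joined that of the others: r to the mean of the other members went from 0.55 to 0.98 for Rpl5, from 0.43 to 0.99 for Rpl12 and from 0.77 to 0.95 for Rpl10. Members with an r under 0.8 numbered 5 before and 2 after, Rps2 and Rpl13, at 0.71 and 0.76. Rps2 had 1 matched copy, with 0.148% of the sum. The values of Rpl5, Rpl12, Rpl10, Rpl27a, Rps23 and the other members with copies are therefore uncertain as values of the gene alone. In addition, 12 members overlap a tested gene on the other strand, among them Rpl5 with Fam69a, Rpl12 with Lrsam1, Rpl35 with Arpc5l, Rps14 with Ndst1 and Rps18 with Vps52, and the quantification is not stated to use strand.

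The table lists 472 transcripts of the members, of which 217 are annotated as protein coding and 171 as retained introns. The protein-coding ones held 93.0% to 93.7% of the members' counts in each library, and retained introns 2.02% to 2.44%. edgeR tested 238 of them among 25977 transcripts and called 0, as it did 0% of all transcripts. At an unadjusted p under 0.05 there were 8, against 3.85% of all transcripts. limma-voom also called 0 of the members' transcripts, and its share of all transcripts is not given here. Groups did not overlap in 2 of the 238, against 2.10% of all.

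These 2 were Rps25-201, at 317, 258, 281 and 281 estimated counts in saline 1 to 4 and 333, 308, 416 and 388 in 4-HPAA 1 to 4 before normalization, and the retained-intron transcript Rps2-202, at 24.2, 14.0, 9.61 and 21.2 in saline and 42.1, 27.4, 26.5 and 27.8 with 4-HPAA. In raw counts Rps25-201 overlapped, since saline 1 was above 4-HPAA 2, and the separation holds for CPM. Their log2 fold changes were 0.38 ± 0.13 (SE) and 0.86 ± 0.30 (SE), each with an adjusted p of 1.00. The smallest p belonged to Rps13-205, a transcript annotated for nonsense-mediated decay, at 31.4, 27.2, 35.6 and 19.1 counts in saline and 19.6, 11.6, 11.7 and 15.7 with 4-HPAA, a log2 fold change of -0.87 ± 0.27 (SE) with an adjusted p of 1.00.

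Rpl22-208 and Rpl22-204 traded counts. Rpl22-208 was at 94.3, 381, 340 and 340 counts in saline 1 to 4 and at 741, 734, 826 and 336 in 4-HPAA 1 to 4, while Rpl22-204 was at 1021, 553, 562 and 537 and at 131, 99.4, 98.9 and 539. Their sum was between 876 and 1115 in saline and between 834 and 925 with 4-HPAA. Rpl22-208 made up 8.46% of that sum in saline 1 and 37.7% to 40.8% in the other saline mice, against 85.0% to 89.3% in 4-HPAA 1 to 3 and 38.4% in 4-HPAA 4. The transcripts share all 2048 bases of Rpl22-208, and Rpl22-204 adds 2 bases at the start and 1 at the end. Their first bases are shown because they are nearly all that separates them, with the added ones in capitals:
Rpl22-204: CTgcctcctctgccgccatggcgcctgtga
Rpl22-208: gcctcctctgccgccatggcgcctgtga
The 3 added bases are all that tells the sequences apart, and whether the transcripts differed between groups cannot be told from these values. The log2 fold change of Rpl22-208 was 1.20 ± 0.41 (SE) with an adjusted p of 1.00.

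Components that the symbol rule leaves out lay on the side of the members in the outer libraries. Fau, a ribosomal protein made as a fusion with a ubiquitin-like protein, Rps3a1, and Rack1, a scaffold on the small subunit, had median deviations of 0.21, 0.03, -0.20 and 0.07 in saline 1 to 4 and -0.04, -0.24, -0.10 and 0.27 in 4-HPAA 1 to 4. Their log2 fold changes were 0.05 for Fau, -0.05 for Rps3a1 and -0.02 for Rack1. Of 9 paralogs, 5 were tested and 0 called. Rps4l, a rodent paralog of Rps4x, was at 17.4, 17.3, 9.25 and 16.5 CPM in saline and at 9.88, 7.47, 13.6 and 9.55 CPM with 4-HPAA, a log2 fold change of -0.58 ± 0.23 (SE) with an adjusted p of 1.00. The groups overlapped through saline 3. The others were Rpl22l1 with 0.09, Rpl36al with 0.04, Rps27l with 0.03 and Rpl7l1 with -0.05. Rpl3l, Rpl10l and Rpl39l, known from muscle or testis, had at most 7, 1 and 2 counts in any library, and Rps27rt at most 32.9.

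The 78 mitochondrial ribosomal proteins, which build a separate ribosome inside mitochondria, had 50 genes above 0 and 28 below, a median log2 fold change of 0.02 and 0 genes called. Mrps24 was at 19.9, 20.1, 15.4 and 19.4 CPM in saline and at 20.5, 24.5, 31.5 and 33.6 CPM with 4-HPAA, all above saline, with a log2 fold change of 0.56 ± 0.16 (SE) and an adjusted p of 1.00. Mrps22 followed with 0.27 ± 0.11 (SE). The median r within groups was 0.59 over pairs of these genes, under the 0.93 of the cytosolic members, and their median deviation was -0.13 in saline 3, -0.13 in 4-HPAA 2 and 0.19 in 4-HPAA 4. The difference between the lists was not tested.

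Translation factors and other proteins encoded by TOP mRNAs (20 tested) had 7 genes above 0, a median log2 fold change of -0.02 and 0 called. The 2 smallest p were those of Hnrnpa1 with -0.10 ± 0.09 (SE), an RNA-binding protein, and Eif4b with -0.07 ± 0.08 (SE), a cofactor of the helicase eIF4A. Their median deviations were 0.14 in saline 1, -0.13 in saline 3, -0.12 in 4-HPAA 2 and 0.16 in 4-HPAA 4, on the side of the members and closer to 0. The 19 initiation factors had 11 above 0 and 0 called, with Eif5 at 0.13 ± 0.09 (SE) and the helicase gene Eif4a1 at -0.11 ± 0.12 (SE).

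The 55 ribosome biogenesis genes had 16 above 0 and 39 below, with a median of -0.04 and 0 called. Gnl2, a nucleolar GTPase of large subunit assembly, was at 28.0, 28.0, 28.0 and 27.9 CPM in saline 1 to 4 and at 19.1, 23.0, 26.2 and 20.0 CPM in 4-HPAA 1 to 4, all under saline. Its log2 fold change was -0.34 ± 0.10 (SE), with an adjusted p of 1.00. Heatr1, needed for processing of ribosomal RNA, followed with -0.18 ± 0.09 (SE). The median deviations of this list were -0.04, 0.07, 0.09 and 0.00 in saline 1 to 4. In 4-HPAA 1 to 4 they were -0.13, -0.08, -0.03 and 0.14. Like the members, the list was highest in 4-HPAA 4 and under its mean in 4-HPAA 2 and 4-HPAA 3. Unlike the members, it was not low in saline 3 or high in saline 1, and it was lowest in 4-HPAA 1.

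The 20 regulators of TOP mRNAs and growth, among them mTORC1 subunits and Larp1, had 9 above 0, 0 called and a median r of -0.08, and their median deviations stayed between -0.04 and 0.04 in every library. Akt1s1, an inhibitory subunit of mTORC1, had a log2 fold change of 0.17 ± 0.09 (SE) and Maf1, a repressor of RNA polymerase III, 0.12 ± 0.07 (SE). Of 14 tested genes of ribosome quality control and the response to faulty assembly, 7 were above 0 and 0 called, with Trp53 at -0.16 ± 0.10 (SE) and Nemf, which marks stalled chains on the large subunit, at -0.11 ± 0.07 (SE). All of these had an adjusted p of 1.00.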

How the data were processed

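Liver mRNA libraries (Illumina TruSeq Directional, paired-end 100 bp, NovaSeq) from 4 saline and 4 4-HPAA mice were quantified by the authors with kallisto, after FastQC 0.11.9, against GRCm38.p6 transcripts. The deposited values are estimated counts per transcript, not normalized. kallisto divides reads that fit several transcripts by a model, which can move counts between near-identical sequences.

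Of 119414 transcripts, 116728 matched GENCODE M21, and the other 2686 held 0.703% to 1.06% of counts. Counts were summed per gene and rounded. Genes that reached 10 counts in all libraries entered edgeR 4.0.16 (R 4.3.3) under TMM normalization, with the quasi-likelihood F test and Benjamini-Hochberg adjustment at 0.05. The standard error is the log2 fold change divided by the root of F. The scripts were tested on simulated data. DESeq2 1.42.0 and limma 3.58.1 were alternatives. Pseudogenes were matched with BLAST+ 2.17.0. Sequences are from RefSeq and GENCODE.

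Members were named by role, by the 4 smallest p in each direction and by the 4 highest and 4 lowest TPM; from each other list the 2 smallest p, and transcripts by the smallest p. Of the genes this named, 2 are not reported here. Members and lists were chosen with earlier results of these data known. Libraries are taken as separate mice from the labels. Without a stated litter, run or sex, p-values measure the spread between these libraries.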

Additional observations from a re-analysis of the deposited data

Results flagged for a closer look

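In 10 of 146 groups of 4 libraries examined, the highest or lowest library stood apart by more of the group's whole range than Dixon's 95% limit for 4 values, where chance gives about 1 in 20, or 7.3. None was a gene of the cytosolic ribosomal proteins, but 2 were transcripts of such genes. Rpl22-208 was low in saline 1, at 94.3 counts against 340 to 381 in the other saline libraries (a gap of 0.857 of the range), and Rps2-202 was high in 4-HPAA 1, at 42.1 counts against 26.5 to 27.8 (0.913).

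Of the other named genes, Rps4l was low in saline 3, at 9.25 CPM against 16.5 to 17.4 CPM (0.883), and so was Mrps24, at 15.4 CPM against 19.4 to 20.1 CPM (0.866). In saline 2 Akt1s1 was high, at 28.0 CPM against 23.6 to 24.2 CPM (0.867), as was Trp53, at 16.0 CPM against 13.2 to 13.6 CPM (0.854).

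Of summed lists, red blood cell markers were high in saline 2, at 2560 CPM against 247 to 376 CPM (0.944), and in 4-HPAA 4, at 734 CPM against 152 to 163 CPM (0.981). The 8 stress genes were high in 4-HPAA 1, at 203 CPM against 53.8 to 67.8 CPM (0.906), though their highest sum was in saline 1, at 330 CPM. The 19 initiation factors were high in 4-HPAA 4, at 2839 CPM against 2452 to 2504 CPM (0.867), the library in which the ribosomal protein genes were highest.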

How the results depend on the processing

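No member was called under any alternative run (DESeq2, limma-voom, RLE or total-count scaling, TMM without the members, no filter or one of 50 counts, a library left out, added pseudogenes, protein-coding transcripts alone, related ribosome components added), and the lowest adjusted p of a member was 0.999. No member transcript was called with limma-voom, total counts, the filter of 50 counts, a library left out or the block. For runs other than the main one and DESeq2, the share of all genes or transcripts called is not given here. Their counts thus describe the members alone. Single mice decided the direction. Leaving out 1 library at a time, members above 0 numbered 4 (without 4-HPAA 4) to 73 (without 4-HPAA 2), and members without overlap 0 to 1. That member was Rps2, without 4-HPAA 1, the only 4-HPAA library not above every saline library in this gene. Its separation thus follows from the library left out. Groups separate more easily with fewer libraries, and the share of all genes in that run is not given here. With saline 1 and 4-HPAA 4 both left out, an alternative chosen after seeing the data like the pseudogenes matched by sequence, 18 members were above 0. Of 50 genes named with a fold change, 18 kept its sign throughout, among them Rps2, Rpl13, Rpl35, Rps4x and Rpl7. The sign of the other 32 turned when a library was left out, with log2 fold changes for the members of Rplp0 -0.057 to 0.068, Rplp1 -0.14 to 0.098, Rplp2 -0.16 to 0.13, Rpsa -0.17 to 0.071, Rps6 -0.13 to 0.041, Rps3 -0.082 to 0.20, Rps14 -0.094 to 0.19, Rps19 -0.19 to 0.054, Rps27a -0.19 to 0.10, Rps24 -0.14 to 0.093, Rpl3 -0.14 to 0.11, Rpl5 -0.10 to 0.040, Rpl11 -0.057 to 0.16, Rpl10 -0.050 to 0.085, Rpl10a -0.16 to 0.14, Rpl13a -0.055 to 0.23, Rpl22 -0.060 to 0.11, Rpl38 -0.15 to 0.13, Rpl39 -0.18 to 0.13, Rpl41 -0.077 to 0.18, Rpl36 -0.0039 to 0.25, Rpl37 -0.22 to 0.030, Rps18 -0.18 to 0.038, Rps20 -0.12 to 0.098, Rpl12 -0.081 to 0.15, and for the other genes of Rack1 -0.12 to 0.061, Rps3a1 -0.16 to 0.019, Fau -0.12 to 0.14, Rps27l -0.041 to 0.11, Rpl22l1 -0.16 to 0.22, Rpl36al -0.046 to 0.10, Rpl7l1 -0.11 to 0.011. Without saline 1 and 4-HPAA 4 it turned for Rplp1 -0.076, Rplp2 -0.085, Rps24 -0.056, Rpl3 0.020, Rpl10 0.049, Rpl10a -0.12, Rpl38 -0.059, Rpl39 -0.046, Rpl41 -0.00469, Rps20 -0.027, Rpl12 -0.13, Fau -0.045, Rpl22l1 -0.026. It also turned with protein-coding transcripts alone (Rpsa 0.011, Rpl5 0.083), with pseudogenes added by name (Rpl10a -0.015) or by sequence (Rpl10a -0.015, Rps20 -0.00345, Rpl12 -0.012), with total counts as the scale (Rpl39 -0.011, Rps20 -0.00426) and with limma-voom (Rpl39 -0.00579).

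The groups share replicate numbers, and the labels do not say that a number marks anything shared. Deviations from the group mean correlated between same-numbered mice at 0.04 to 0.47 and between other mice at -0.47 to 0.46, and 4 of 8 libraries correlated best with their own number. Since 1 of 4 pairs was under 0.1, the fit without the block was kept, and whether the numbers pair the mice is unsettled. With the replicate number as a block edgeR called 0 members, with 36 above 0, and the fold change turned for Rpl39 -0.00745. The member medians spread between mice of a group with an SD of 0.23 on the log2 scale, which limits what 4 mice a group can show.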
